A study of Arabidopsis thaliana with 21 samples.

Results

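The loci described here are those of the plastid (chloroplast) genome of Arabidopsis thaliana, followed on expression arrays from the dry seed to the green seedling. They were chosen as every probe set whose locus code begins with ATCG, the prefix of plastid loci. The table held 132 such loci with 1 probe set each, among 27981 loci in all. In 18 pairs (36 loci) both loci carried identical values on every array, so each pair was counted once, which left 114 plastid loci with values of their own among 27890. Of these, ATCG00610 also had the same values as the loci AT2G07748 and ATMG00930, and ATCG00240 the same as AT3G20365, so their signal cannot be given to the plastid alone. Neither the files nor the gene table used here pair ATCG codes with gene names, so plastid loci are given by their codes and no single locus is given a name, function or transcription unit.

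The 7 stages, all of the cultivar Col-0 and with no further genotype or treatment in the labels, were mature dry seed (DS), seed after 6 h of imbibition (6H), testa rupture (TR), radicle protrusion (RP), root hair formation (RH), greening cotyledons (GC) and opened cotyledons (OC). Each stage had 3 biological replicates, pools of seed harvested in bulk from 3 to 4 plants. Per the labels, seeds were kept on wet filter paper in the cold (4 °C) for 72 h and then moved to constant white light, with growth at 22 °C. Seeds or seedlings of each stage were selected under a stereomicroscope. The labels repeat these conditions for every stage, dry seed and imbibed seed included. It is therefore unclear how much cold and light the DS and 6H samples had received before sampling. The part of cold and light in the changes into 6H and TR was not tested. Whole seeds or seedlings were sampled, so fewer cells of a type and less RNA per cell cannot be told apart.

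The plastid genome of land plants encodes core subunits of the photosystems, the cytochrome b6f complex, the ATP synthase, the NDH complex and the large subunit of Rubisco, together with ribosomal proteins, ribosomal RNAs, transfer RNAs and subunits of a bacterial-type RNA polymerase. The nucleus encodes the remaining subunits of these complexes, a phage-type plastid polymerase, the sigma factors that guide the bacterial-type polymerase to promoters, and the proteins attached to that polymerase. Seeds hold undifferentiated plastids, which become chloroplasts as the cotyledons green.

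Values are log2 intensities after RMA normalization, and a level is a stage mean on that scale. A change is the later stage mean minus the earlier one, ± its standard error, from 1 linear model over all 21 arrays in limma. Loci are said to have risen or fallen where the Benjamini-Hochberg adjusted p over all 27890 genes was under 0.05. The precision of every value is limited by the 3 arrays per stage.

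Replicates were close. The lowest Pearson correlation between 2 replicates of a stage over the 114 loci was 0.980, in DS, where loci are not independent replicates. Some arrays nevertheless moved the plastid loci as a body. At 6H, replicate 3 was the highest of its stage for 108 of the 114 loci, and the median SD of a locus was 0.17 there, against 0.042 to 0.086 at the other stages. At RP, replicate 2 was the highest for 98 loci. In DS, replicate 2 was the highest for 75 loci, and the median level of the nuclear-encoded photosynthetic subunits was 4.71 on that array, against 3.86 and 3.81 on replicates 1 and 3. The stages followed their markers. The median level of the 3 storage markers (CRA1, CRU3 and OLEO1) was 6.07 at OC and 12.24 in DS. For the 3 root hair markers it was 8.51 at RH and 3.72 at RP, and for the 3 markers of green cotyledon cells 7.44 at OC and 4.39 in DS. The 2 endosperm markers had a median of 5.89 at OC and 10.39 in DS, and the 2 seed coat markers lay between 2.91 and 3.62 at every stage, around the 30th percentile of all values (3.47). The part of these shifts in tissue in the plastid results was not tested.

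Plastid loci stood near the top of the signal scale on every array. The median plastid locus lay at the 98.9th percentile of all genes in DS and at the 99.7th at GC and OC. In DS 54 to 56 of the 114 loci lay above the 99th percentile, at 6H 63 to 70, at TR 85 to 87, at RP 91 to 94, at RH 96 to 97, at GC 99 to 101 and at OC 101 to 103. Among the 100 brightest genes of an array, 72 to 74 were plastid loci at OC and 23 to 24 were in DS. Together the loci made up 9.38%, 10.2% and 9.70% of the summed linear signal of the 3 OC arrays, against 4.72%, 5.16% and 4.80% of that of the 3 DS arrays. The highest plastid stage mean was 12.77 at OC and 12.56 in DS, beside a brightest value of 12.85 in the whole table. That value was itself of a plastid locus, ATCG00950 on OC replicate 2, so it is no independent ceiling. How far the top of the scale limited the changes of the brightest loci was not tested.

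Over the whole span 110 of the 114 loci rose (96.5%), 1 fell and 3 did not pass the test, where 33.3% of all genes rose and 42.4% fell. The rise was at least 2-fold for 64 loci (56.1%), against 23.2% of all genes, with a median change of 1.07 and a range from -0.996 to 3.52. The median change of all genes was -0.20, and under the other scalings the plastid median lay between 0.54 and 1.26. All 3 OC arrays lay above all 3 DS arrays for 95.6% of the plastid loci, against 32.5% of all genes.

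**Figure D1:**
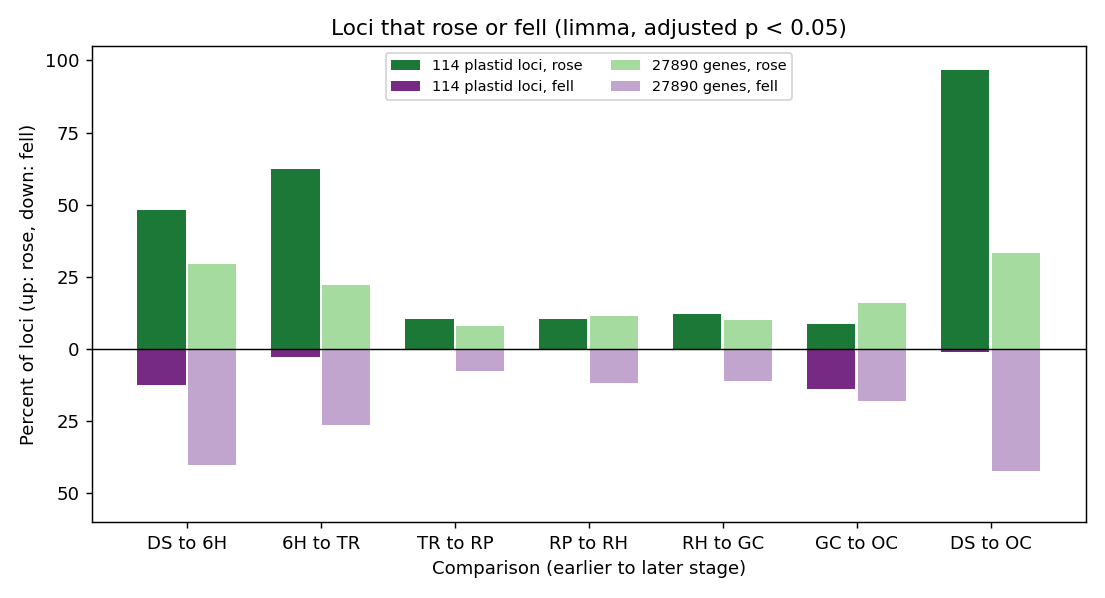
Percent of loci that rose (bars up) or fell (bars down) at an adjusted p under 0.05 in each comparison, for the 114 plastid loci (dark) and all 27890 genes (light). Plastid rises made up 48.2% from DS to 6H, 62.3% from 6H to TR and 96.5% over the whole span, with values as deposited. Centred arrays gave 12 or 8 rises from DS to 6H. Centring on reference genes gave 58 from GC to OC, where it put the median change of all genes at 0.23.

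The largest rise over the span was that of ATCG00690. Its values were 9.27, 10.05 and 9.68 at OC, against 6.14, 6.17 and 6.13 in DS, a change of 3.52 ± 0.24 (11.5-fold, limma adjusted p = 4.2e-11). Every OC array was far above every DS array. ATCG00250 followed with 9.83, 9.89 and 10.00 at OC, against 6.77, 7.81 and 6.63 in DS (2.84 ± 0.20, limma adjusted p = 4.7e-11). These groups did not overlap either, although DS replicate 2 stood well above the other DS arrays.

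The single fall over the span was that of ATCG00060, with 7.73, 8.21 and 7.71 at OC, against 8.92, 8.66 and 9.05 in DS (-0.996 ± 0.16, limma adjusted p = 1.3e-05). Its groups did not overlap. Most of this fall lay between 6H and TR, and its stage means from TR to GC ran only from 8.11 to 8.22.

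**Figure D2:**
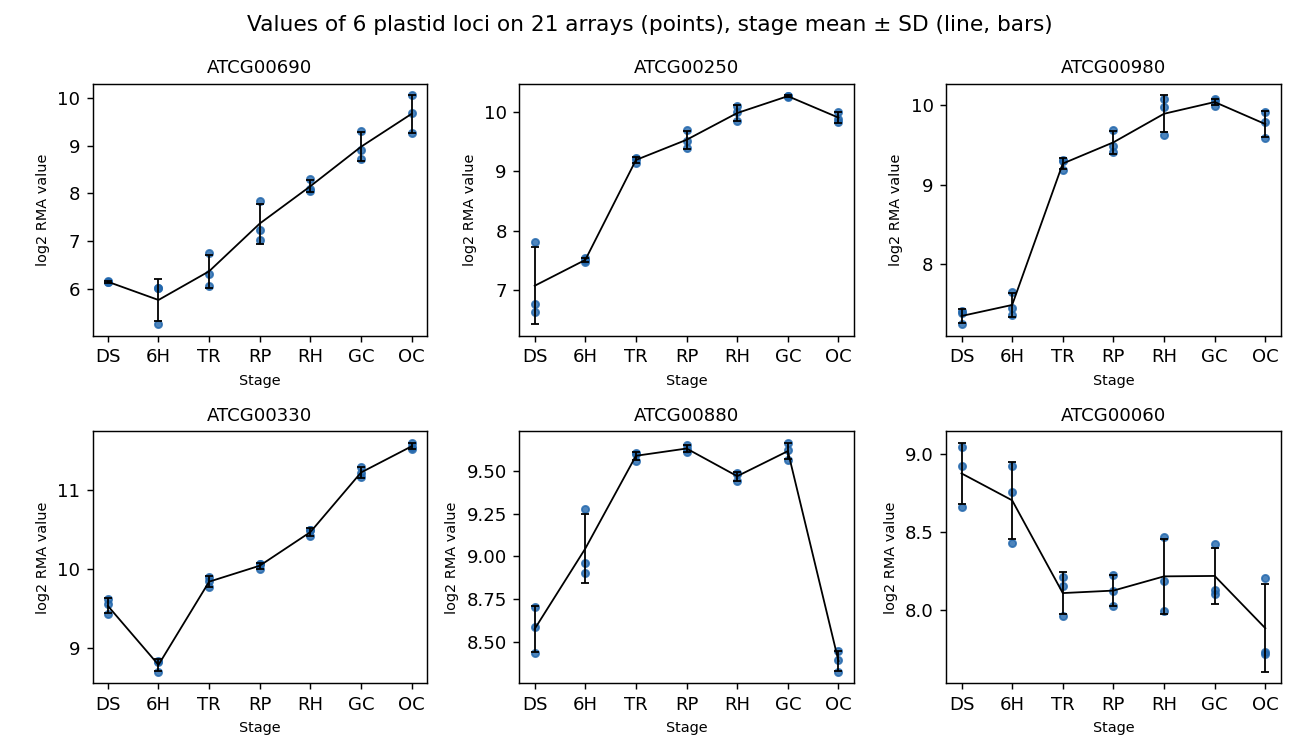
Log2 RMA values of 6 plastid loci on the 21 arrays by stage (points), with the stage mean (line) and SD (bars, n = 3); each panel has its own vertical scale. ATCG00690 climbs at each step after 6H, ATCG00250 and ATCG00980 climb mainly between 6H and TR, ATCG00330 dips at 6H, ATCG00880 drops at OC, and ATCG00060 ends below its DS values.

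Across the series as a whole, all 114 loci passed limma's F test at an adjusted p under 0.05. The share of all genes that passed this F test alone is not given here, so that count is not read as a plastid trait. Of the 114 loci, 76 also spanned 1 or more between their lowest and highest stage mean (66.7%), close to the 66.5% of all genes that met both. Ranges ran from 0.29 to 3.90 with a median of 1.25, where the median of all genes was 1.47. The lowest stage mean was in DS for 75 loci and at 6H for 36. The highest was at OC for 64 loci, at GC for 40 and at RH for 7, and neighbouring late stages often did not differ beyond their error.

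The step with the largest rise of a locus led into 6H for 35 loci, into TR for 54, into RP for 13, into RH for 1, into GC for 7 and into OC for 4. The count for 6H followed the scaling: it was 55 after a repeated quantile normalization, 9 with arrays centred on the median of all genes and 2 with the reference genes, which put 30 at OC. Into TR it was 42, 69 and 68. From 6H to GC the stage mean rose at each of the 4 steps for 91 loci (79.8%), which was so for 11.3% of all genes. Most of these single steps did not pass the test.

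**Figure D3:**
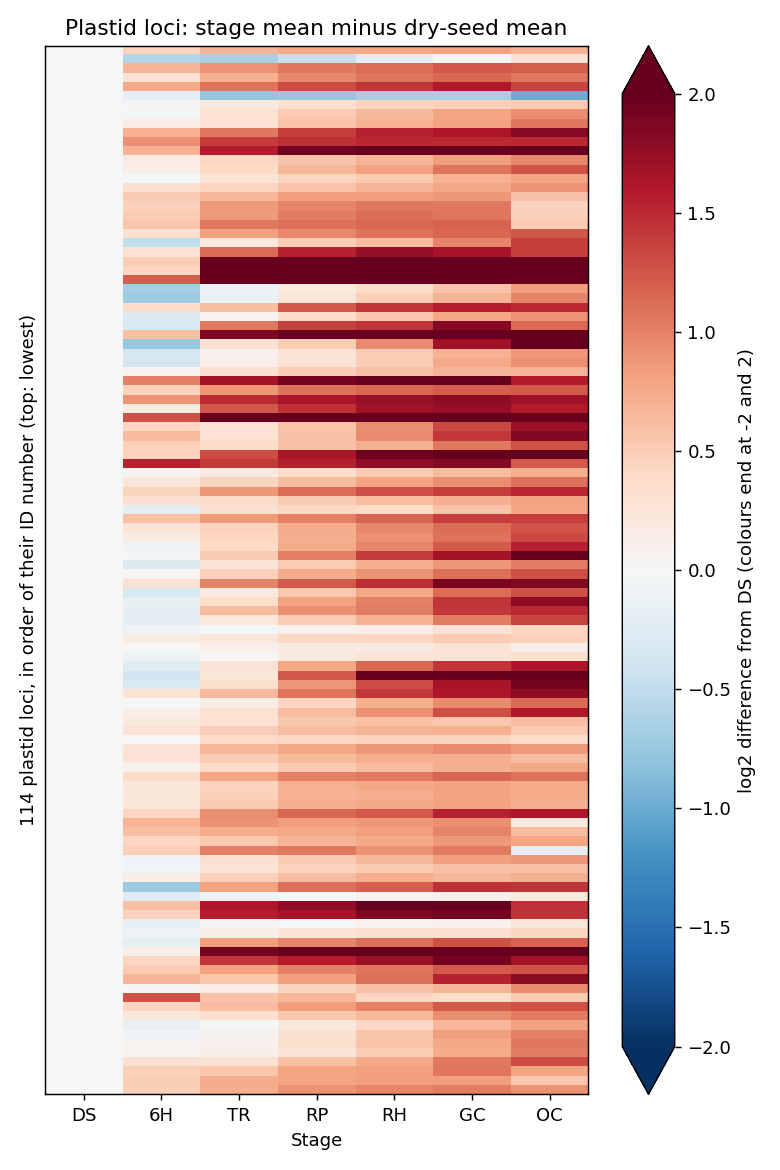
Stage mean minus the DS mean (log2, colour) for the 114 plastid loci in order of their code number, by stage. Red marks levels above DS and blue levels below it; the 6H column is mixed, and from TR on nearly all rows are red, with colours ending at -2 and 2.

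The first step was imbibition. Between DS and 6H 55 loci rose, 14 fell and 45 did not pass, where 29.6% of all genes rose and 40% fell. At least 2-fold rises were seen for 5 loci (4.39%), against 14.7% of all genes, and no fall reached 2-fold, against 10.7%. The median change of the plastid loci was 0.23, and that of all genes -0.23. This split depended on how arrays were scaled. The median level of all genes was 5.16 at 6H and 4.79 in DS. With each array centred on that median, 12 plastid loci rose and 43 fell (median change -0.14, beside -0.60 for all genes). Centring on 8 reference genes instead left 8 rises and 55 falls (-0.25, beside -0.71 for all genes), and a repeated quantile normalization gave 68 rises and 13 falls (0.31, beside -0.03). In the values as deposited 6 of the 8 reference genes rose from DS to 6H and 0 fell (median change 0.42), so they were not stable in this step. The plastid median was 0.46 above that of all genes, a gap that a centring cannot change, and 0.34 above it after the repeated quantile normalization. Without 6H replicate 3, the array on which plastid loci were highest, 40 rose and 20 fell.

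The largest rise into 6H was that of ATCG00460, with 9.15, 9.33 and 9.50 at 6H, against 7.63, 7.84 and 7.88 in DS (1.54 ± 0.11, limma adjusted p = 3.2e-10). The stages were clear of each other, and this locus then stayed between 9.19 and 9.61 up to GC. ATCG01030 measured 7.11, 7.80 and 7.81 at 6H, against 6.10, 6.16 and 6.62 in DS (1.28 ± 0.20, limma adjusted p = 1.4e-05). It was high at 6H alone. At TR it measured 6.998, 6.65 and 6.95, a change of -0.70 ± 0.20 relative to 6H (limma adjusted p = 0.0059).

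The deepest fall into 6H was that of ATCG00330, with 8.82, 8.69 and 8.83 at 6H, against 9.61, 9.55 and 9.43 in DS (-0.75 ± 0.09, limma adjusted p = 2.9e-07). The groups were well apart. ATCG00910 was next in size, with 9.26, 9.48 and 9.47 at 6H, against 9.51, 11.37 and 9.49 in DS (-0.72 ± 0.31, limma adjusted p = 0.046). That value rested on DS replicate 2, and without this array the change was -0.10 (limma adjusted p = 0.56).

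From 6H to TR the plastid loci moved upward together. Here 71 loci rose, 3 fell and 40 did not pass, against 22.3% of all genes that rose and 26.2% that fell, and 12 rises (10.5%) were at least 2-fold, against 9.81% of all genes. The median change was 0.33, beside 0.01 for all genes, and it lay between 0.27 and 0.44 under the other scalings. The 14 loci that fell from DS to 6H had a median change of -0.36 there and of 0.53 here, in 2 comparisons that share the 6H arrays. Storage and endosperm markers dropped in the same step: all 3 storage markers fell, with a median change of -4.68, and both endosperm markers fell, with a median of -3.00. Their part in the plastid rises was not tested.

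ATCG00980 had the largest rise, with 9.18, 9.31 and 9.30 at TR, against 7.36, 7.44 and 7.64 at 6H (1.78 ± 0.12, limma adjusted p = 3.7e-10). ATCG00250 measured 9.22, 9.21 and 9.14 at TR, against 7.48, 7.53 and 7.51 at 6H (1.68 ± 0.20, limma adjusted p = 5e-07). In both loci the SD was at most 0.15 at 6H and at TR, far less than the gap between these stages. Beside ATCG01030, ATCG00060 fell, with 7.96, 8.21 and 8.15 at TR, against 8.43, 8.76 and 8.92 at 6H (-0.60 ± 0.16, limma adjusted p = 0.0042).

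The 3 steps from TR to GC were small and nearly uniform in direction. From TR to RP 12 loci rose and 0 fell by limma, where 7.82% of all genes rose and 7.44% fell. The stage mean was nevertheless higher at RP for 113 of the 114 loci, against 13599 of all 27890 genes. All 3 RP arrays lay above all 3 TR arrays for 73.7% of the plastid loci, against 16.5% of all genes. The median change of the plastid loci was 0.21. At an unadjusted p under 0.05, 50 loci were higher at RP and 0 lower. With a variance prior that follows the level and is robust to outliers, 46 loci passed as rises. At an unadjusted p, with this prior or under another scaling, the shares of all genes are not given, here or for later steps. Without RP replicate 2, the array on which most plastid loci were highest, 5 rose.

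From RP to RH 12 loci rose and 0 fell, where 11.5% of all genes rose and 11.9% fell, and the median change was 0.13. Non-overlapping rises were seen for 54.4% of the loci, against 19% of all genes. From RH to GC 14 loci rose and 0 fell, where 10.1% of all genes rose and 10.9% fell, with a median change of 0.14. Non-overlapping rises made up 56.1%, against 18.9% of all genes. At an unadjusted limma p under 0.05, 26 loci were higher at RH than at RP and 33 higher at GC than at RH, with 0 lower in either step. The share of plastid rises was near that of all genes in both steps, the share of falls was below it, and the share of rises without overlap was above it. With the trended and robust prior 26 loci rose into RH and 31 into GC, with arrays centred on the median of all genes 4 and 4, and with the reference genes 34 rose into GC. Counts here depended on single arrays: omission of 1 array gave 3 to 15 rises into RH and 5 to 18 into GC.

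ATCG00690 rose at each of these steps. It measured 6.74, 6.30 and 6.05 at TR, 7.03, 7.84 and 7.23 at RP, 8.10, 8.05 and 8.30 at RH, and 9.31, 8.91 and 8.71 at GC. The change relative to the stage before was 1.001 ± 0.24 at RP (limma adjusted p = 0.0069). It was 0.78 ± 0.24 at RH (limma adjusted p = 0.022) and 0.83 ± 0.24 at GC (limma adjusted p = 0.018). No array of a stage overlapped the stage before. Each of these calls was lost when certain single arrays were omitted, with adjusted p values from 0.055 to 0.12.

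Other loci were among the largest called rises of single steps. ATCG00290 measured 10.32, 10.37 and 10.47 at RP, against 9.84, 9.84 and 9.64 at TR (0.61 ± 0.13, limma adjusted p = 0.0022). ATCG00700 measured 11.16, 11.18 and 11.09 at RH, against 10.68, 10.86 and 10.61 at RP (0.43 ± 0.13, limma adjusted p = 0.018). Both had separate groups. ATCG00330, low at 6H, measured 11.30, 11.22 and 11.16 at GC, against 10.42, 10.50 and 10.49 at RH (0.76 ± 0.09, limma adjusted p = 4.5e-06).

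In the last step, from greening to open cotyledons, most plastid loci did not pass the test. Between GC and OC 10 loci rose, 16 fell and 88 did not pass, where 16.1% of all genes rose and 17.9% fell, so the plastid shares (8.77% and 14%) lay below those of all genes. The median change was 0.07, beside -0.03 for all genes. The balance again followed the scaling. With arrays centred on the median of all genes 0 loci rose by limma (4 at an unadjusted p under 0.05) and 16 fell (median change -0.0043, beside -0.10 for all genes). With 8 reference genes 58 rose and 7 fell (0.33, beside 0.23 for all genes). A repeated quantile normalization put the median at -0.0047, beside -0.05 for all genes. In the values as deposited 4 of the 8 reference genes fell in this step and 0 rose (median change -0.28). Rises also depended on single arrays, with 2 loci left when GC replicate 3 was omitted, 3 without OC replicate 2 and 17 without 6H replicate 3. Falls numbered 11 to 18 whichever array was omitted.

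ATCG00880 fell most, with 8.39, 8.32 and 8.44 at OC, against 9.66, 9.57 and 9.62 at GC (-1.23 ± 0.10, limma adjusted p = 1e-08). The SD was 0.06 at OC and 0.05 at GC, and its OC mean (8.39) was back near its DS mean (8.57). ATCG00850 measured 9.62, 9.58 and 9.66 at OC, against 10.42, 10.28 and 10.34 at GC (-0.72 ± 0.11, limma adjusted p = 3.5e-05), again without overlap.

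The largest called rise was again that of ATCG00690, with 9.27, 10.05 and 9.68 at OC, against 9.31, 8.91 and 8.71 at GC (0.69 ± 0.24, limma adjusted p = 0.032), and its groups overlapped. ATCG00430 measured 10.89, 10.95 and 11.06 at OC, against 10.64, 10.49 and 10.47 at GC (0.43 ± 0.12, limma adjusted p = 0.0091). ATCG00220 measured 11.19, 11.59 and 11.29 at OC, against 10.99, 11.08 and 10.80 at GC (0.40 ± 0.15, limma adjusted p = 0.038). The arrays of ATCG00430 and ATCG00220 were separate, and without OC replicate 2 the limma adjusted p of ATCG00220 was 0.18.

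The first and last steps share no array and could be set against each other. Of the 16 loci that fell from GC to OC, 15 had risen from DS to 6H, where 48.2% of all plastid loci rose. This count followed the scaling: with arrays centred on the median of all genes 5 of the 16 loci that then fell from GC to OC had risen and 1 had fallen, and with the reference genes 1 of the 7 had risen. The median change from DS to 6H was 0.54 for the 16 falling loci and 0.15 for the other plastid loci, and with arrays centred on the median of all genes, which shifts all loci alike, 0.17 for the loci that then fell and -0.22 for the others. Over the 114 loci the changes of the first and last steps had a Pearson correlation of -0.45 and a Spearman correlation of -0.49, beside a Pearson correlation of -0.23 over all genes. By contrast, changes from TR to RP and from GC to OC correlated at 0.46, beside 0.09 over all genes, and those from TR to RP and from RH to GC at 0.56, beside 0.22. Loci share arrays and are not independent, so these values are descriptions.

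**Figure D4:**
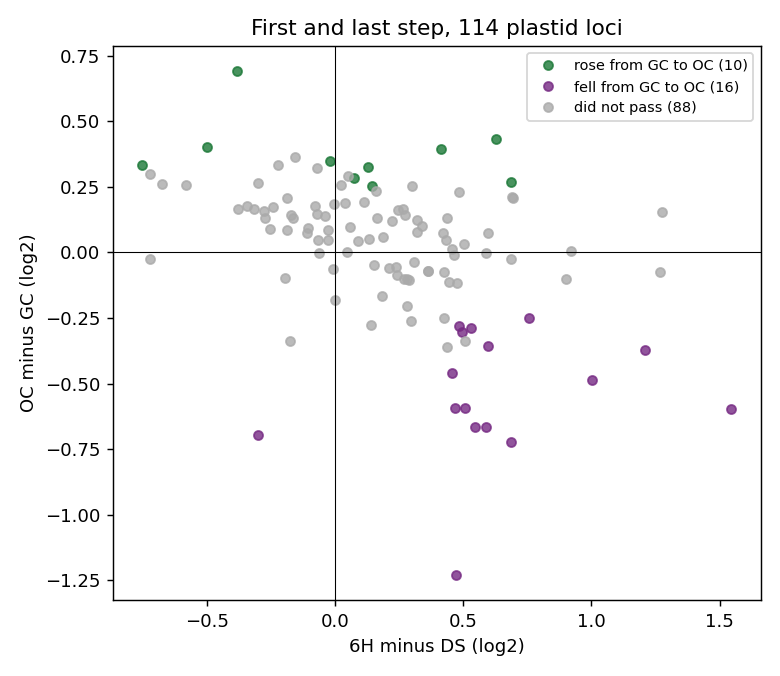
Change from DS to 6H (horizontal, log2) against change from GC to OC (vertical, log2) for the 114 plastid loci, coloured by the call from GC to OC. Of the 16 loci that fell (purple), 15 lie on the right, where 6H was above DS in the values as deposited; the lowest point is ATCG00880.

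The 16 falling loci changed little on the median between RP and GC. Relative to the stage before, their median change was 0.54 at 6H, 0.37 at TR, 0.15 at RP, 0.06 at RH, 0.05 at GC and -0.54 at OC. The steps on either side of GC share the GC arrays. The 10 loci that rose from GC to OC followed another course, with medians of 0.10, 0.16, 0.29, 0.31, 0.39 and 0.34 over the same steps. On the median both sets ended above DS, with a change from DS to OC of 0.72 for the falling loci and 1.76 for the rising ones. The sets were chosen by their call from GC to OC, so the OC arrays enter both the choice and this change. The contrast between the sets over the span is thus partly built in, as are their medians at OC.

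Loci next to each other in the code numbering had similar profiles. The median Pearson correlation of the 7 stage means was 0.96 for the 113 pairs next to each other in the numbering, 0.93 for pairs 2 places apart, 0.89 at 5 places, 0.86 at 10 places and 0.88 at 20 places, beside 0.88 over all 6441 pairs. These values share arrays, and whether a probe set also binds RNA of a neighbouring locus was not tested. Of the 55 loci that rose from DS to 6H, 46 (83.6%) stood next to another that rose, against 54.2% of the loci that did not rise. Of the 14 that fell in that step, 7 (50%) had a falling neighbour, against 18% of the others, and both counts rest on the scaling of the step. From 6H to TR 67 of the 71 rising loci (94.4%) had a rising neighbour, against 60.5% of the others. From GC to OC the share was 62.5% of the 16 falling loci, against 19.4% of the others, and 20% of the 10 rising loci, against 17.3% of the others.

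Nuclear genes for plastid proteins were set beside the plastid loci, from 3 lists given by their symbols in the gene table. The list of plastid transcription held 17 measured genes: sigma factors and proteins attached to the plastid-encoded polymerase. From DS to 6H 13 of the 17 rose and 2 fell, and from 6H to TR 16 rose and 0 fell (0 also at an unadjusted limma p under 0.05). Of all genes, 29.6% rose and 40% fell from DS to 6H, and 22.3% rose and 26.2% fell from 6H to TR. Later the direction turned: 9 fell and 0 rose from RH to GC (1 at an unadjusted limma p), and 13 fell and 2 rose from GC to OC, with a median change of -1.49 in the last step. Over all genes 10.1% rose and 10.9% fell from RH to GC, and 16.1% rose and 17.9% fell from GC to OC. Of the 114 plastid loci, 0 fell into GC and 16 into OC.

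Members of the transcription list moved both ways at the end of the series. FLN1, a fructokinase-like protein of the polymerase complex, had a level of 5.81 at OC, against 8.49 at GC (-2.68 ± 0.11, limma adjusted p = 4.6e-13). FSD3, a plastid iron superoxide dismutase found with the same complex, changed by -2.55 ± 0.13 and PDE312 (PTAC10) by -2.38 ± 0.13 in that step. The 2 genes that rose were SIGE and SIGA, both sigma factors. SIGE had a level of 6.87 at OC, against 5.66 at GC (1.21 ± 0.21, limma adjusted p = 0.00016), and SIGA one of 8.47, against 8.03 (0.43 ± 0.16, limma adjusted p = 0.038). The other sigma factors, chosen for mention after their values were seen, did not move as a body: SIGF (-0.87 ± 0.13) and SIG2 (-0.33 ± 0.11) fell from GC to OC, while SIG4 (0.28 ± 0.14) and SIGC (-0.06 ± 0.12) did not pass. Over the whole span SIGA rose by 4.92 ± 0.16 and SIG4 by 2.48 ± 0.14, while PDE312 changed by -2.19 ± 0.13, PTAC6 by -1.52 ± 0.10 and FLN1 by -1.48 ± 0.11.

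The 31 nuclear subunits of photosynthetic complexes rose far more than the plastid loci. From DS to OC all 31 rose at least 2-fold, against 23.2% of all genes. The median change of the 31 was 5.71, beside 1.07 for the plastid loci. The nuclear subunits started lower on the scale, with a median level of 4.13 in DS, where the plastid median was 10.39. RBCS1B, a Rubisco small subunit, had a level of 11.15 at OC, against 2.98 in DS, and PSAK, a photosystem I subunit, one of 10.84, against 3.68. Of the 31, 29 rose into TR, 27 into RP, 25 into RH, and 16 in each of the last 2 steps. From 6H on 0 fell (0 also at an unadjusted limma p under 0.05). Of all genes, 22.3% rose into TR, 7.82% into RP, 11.5% into RH, 10.1% into GC and 16.1% into OC, and 7.44% to 26.2% fell. From DS to 6H 16 rose, led by ATPC1, the gamma subunit of the plastid ATP synthase (3.33 ± 0.17, limma adjusted p = 2.3e-12), and 5 fell, led by PSAD-2, a photosystem I subunit (-2.03 ± 0.15, limma adjusted p = 6.3e-10). In that step 29.6% of all genes rose and 40% fell. With arrays centred on the reference genes that first step turned, with 10 rises and 11 falls. DS replicate 2 was the high array of this list in DS, as given above.

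The 17 nuclear subunits of the plastid ribosome rose early and fell late. All 17 rose from DS to 6H and all 17 from 6H to TR, with median changes of 0.97 and 0.69. In these steps 29.6% and 22.3% of all genes rose. From RH to GC 0 passed in either direction (1 higher and 0 lower at an unadjusted limma p, 1 rise with the trended and robust prior), and all 17 fell from GC to OC, with a median change of -0.69. Of all genes, 10.1% rose and 10.9% fell from RH to GC, and 17.9% fell from GC to OC. With arrays centred on the reference genes 13 of the 17 rose and 1 fell from DS to 6H, and 14 fell from GC to OC. RPL12-A had the largest rise into 6H, with a level of 8.38 at 6H, against 6.68 in DS (1.70 ± 0.10, limma adjusted p = 3.1e-11). RPL27 had the deepest fall into OC, with 9.17 at OC, against 10.25 at GC (-1.08 ± 0.11, limma adjusted p = 2.8e-07). All 17 remained above DS at OC, with a median change of 1.44 over the span.

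**Figure D5:**
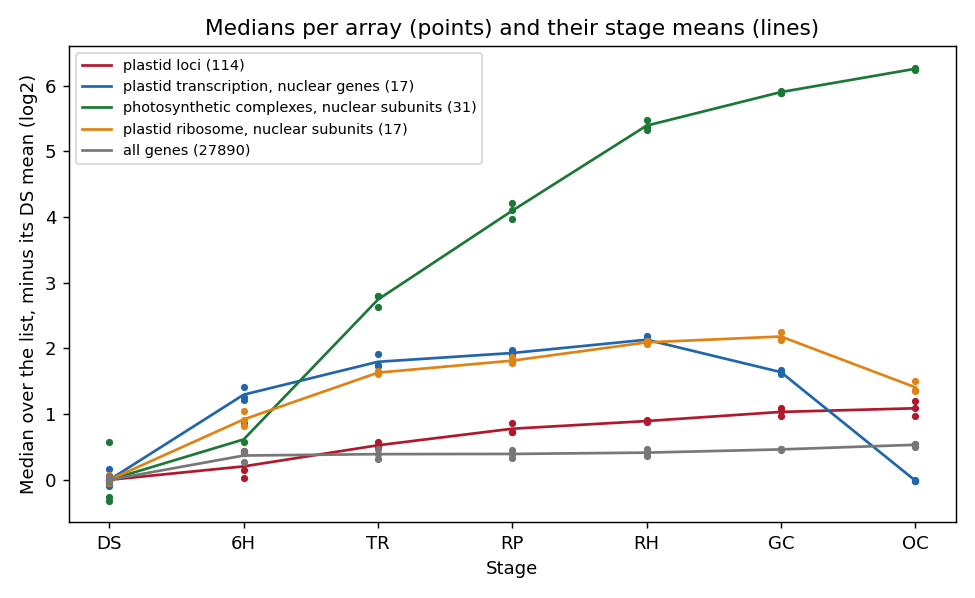
Median over each list on each array (points) and its stage mean (lines), as the log2 difference from the list's DS mean, by stage. The plastid loci (red) climb slowly to OC, the nuclear photosynthetic subunits (green) climb most, and the lists of plastid transcription (blue) and plastid ribosome (orange) come down at OC; the median level of all genes (grey) is higher from 6H on although the median of the gene-wise changes from DS to 6H is -0.23.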

How the data were processed

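The deposited table held log2 values of 35986 probe sets on 21 arrays; per the submitters' processing notes they were made with RMA (background correction, quantile normalization and summary of probes), for which no version, probe set annotation or build is given in the sources used here. Per the labels, 50 ng of total RNA was amplified and labelled with biotin. All sample columns were used. Depth does not apply to arrays; the 3 arrays per stage limit precision.

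Probe sets of a locus were averaged, and loci with identical values on all arrays were counted once (91 merged). The limma 3.58.1 model (R 4.3.3) fitted stage means, left 14 residual degrees of freedom and used the default variance moderation. Tests were 2-sided, for the 6 consecutive steps and for DS to OC, with an F test across the series. The pipeline was tested on simulated data.

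The plastid loci, lists, comparisons and alternatives were chosen with earlier results of these data known. The planned rule named the 6 largest rises and falls per comparison among loci that passed and whose arrays did not overlap, and further loci by gene name and class. The plan listed operons by code, but no data or gene table used here pairs ATCG codes with names, so they could not be checked. The TAIR10.1 gene table lists 129 plastid genes, none with such a code. Only 2 rises and 2 falls are therefore named per comparison, and classes, operons and promoter motifs were not analysed here. In each nuclear list the 3 largest rises and falls that passed were eligible to be named, and members whose planned name the gene table does not give were left out. The alternatives were a further quantile normalization, 2 centrings, a variance prior that was trended and robust, a filter that kept genes above the 30th percentile on at least 3 arrays, the highest probe set of a locus, a replicate term, a fit on 6 arrays, and omission of arrays.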

Additional observations from a re-analysis of the deposited data

How the results depend on the processing

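Of 449 recomputed counts of plastid loci, 406 stayed within 1.5 times the reported count. The changes of plastid loci named by the rule above kept their sign in 630 recomputations, of which 41 no longer passed the test. Those of ATCG00690 from GC to OC and of nuclear genes were not among the 630. Many recomputations of both kinds omitted an array of a stage outside the comparison, which leaves the compared stage means unchanged. These tallies therefore say little about the scaling, whose counts follow below. Replicate numbers did not pair the samples: of 63 same-numbered pairs of arrays from different stages, 11 had deviations correlated over 0.1, and the same-numbered array was the best match in 21 of 63. With a replicate block, counts stayed close (55 rises and 14 falls from DS to 6H, 67 rises from 6H to TR, 8 from RP to RH), and the block ended no call of a named locus. With the highest probe set of a locus no count changed beyond 1.5 times. No plastid locus had several probe sets, so this setting could not change the plastid values.

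With arrays centred on the median of all genes, 12 loci rose and 43 fell from DS to 6H, 6 rose into RP, 4 into RH, 4 into GC and 0 into OC (each from the stage before), and 6 fell from DS to OC. With centring on reference genes, 8 rose and 55 fell from DS to 6H, 34 rose from RH to GC, and 58 rose and 7 fell from GC to OC. This centring put the median change of all genes at -0.71, 0.16 and 0.23 in these steps. With the trended and robust prior, 46 rose into RP, 26 into RH, 31 into GC and 29 into OC, and 2 fell from DS to OC. Without dim genes 19 rose from TR to RP. On the 6 arrays of the comparison alone, 8 fell from DS to 6H, and 2 rose and 9 fell from GC to OC. Without DS and OC replicates 2 together, 3 rose from GC to OC. The shares of all genes called under these settings are not given, so these counts are not read as a plastid trait. The cause of these shifts in the counts was not tested.

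Omission of 1 array at a time gave, into 6H, 40 to 58 rises and 9 to 20 falls, and into TR 53 to 85 rises and 2 to 3 falls. Rises into RP numbered 5 to 18, into RH 3 to 15, into GC 5 to 18 and into OC 2 to 17, with 0 falls into RP, RH and GC and 11 to 18 into OC. Over the span from DS to OC there were 106 to 110 rises and 1 to 2 falls. Loci that changed across the series numbered 75 to 81. Limits of the array are the closeness of plastid signal to the top of the scale and the scaling between seeds and seedlings.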
